A study of Rattus norvegicus with 8 samples.

Results

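The ATP-binding cassette (ABC) transporter superfamily was examined in the livers of rats fed an extract of persimmon peel. Members were the probe sets whose single platform gene symbol began with Abc, a subfamily letter from a to g and a digit. This rule gave 50 probe sets for 37 genes, of 31042 non-control probe sets on the array and 14218 genes named by a set of their own, and the probe set with the highest mean log2 signal stood for its gene. All 8 animals were male Goto-Kakizaki (GK) rats, bred without outcrossing as a lean model of type 2 diabetes, and were 18 weeks old. The control diet group (n = 4) ate AIN-93G, a purified rodent diet, and the persimmon peel diet group (n = 4) ate the same diet with the extract for 12 weeks; their samples are called control livers and persimmon-fed livers here. The dose of the extract and a non-diabetic strain were not analysed here, so the values describe diabetic livers alone. Each liver was hybridised to 1 Affymetrix array, and the signals are MAS5 intensity values in arbitrary units.

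ABC proteins carry a pair of conserved nucleotide-binding domains, either in 1 chain or in half-molecules that dimerise, and most use ATP to move a substrate across a membrane. In the hepatocyte they build bile: separate members pump bile salts, phospholipid, sterols and conjugated waste across the canalicular membrane into bile. Others load cholesterol onto high-density lipoprotein particles at the sinusoidal side, or serve peroxisomes, mitochondria and lysosomes. Subfamilies E and F have no membrane domain and act in translation.

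The liver label was checked against hepatocyte markers, of which 9 of 10 had a tested set, with a summed signal of 82863 to 87468 in control livers and 76042 to 83363 in persimmon-fed livers. Array medians ran from 33.2 to 39.2 signal units, and persimmon peel array 3 was the brightest array for 44.3% of all tested genes. A check of RNA and labelling quality, the middle over the 3' control set of beta-actin as a log2 ratio, averaged -0.76 ± 0.02 (SD, n = 4) in control livers. In persimmon-fed livers it averaged -1.06 ± 0.11 (SD, n = 4), with no overlap between the diets. A two-sided exact permutation test gave p = 0.0286, which is the lowest value 4 against 4 can reach, and 0.0571 after adjustment over 4 ratios. The same ratio of GAPDH averaged -0.58 ± 0.03 and -0.59 ± 0.05 (SD, n = 4 each, exact permutation p = 0.857). The 5' over the 3' set of GAPDH averaged -0.29 ± 0.10 and -0.43 ± 0.08 (exact permutation p = 0.0857). The beta-actin ratio moved with the diet, and its part in the diet comparisons was not tested. Values from a fit with it as a covariate are given below, but that fit can hardly tell ratio and diet apart.

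Most ABC genes did not pass the test between the diets, and the single gene called by its brightest set was Abca8a, which was lower in persimmon-fed livers. Of the 50 probe sets, 37 passed the filter on dim sets (mean signal of at least 34.4) and covered 29 genes, and the other 8 genes had no tested set. By limma with Benjamini-Hochberg adjustment over all tested probe sets, 2 of the 37 sets were called lower (adjusted p under 0.05) and 0 higher. Among all 15521 tested sets 4.53% were called lower and 0.425% higher, so the share of ABC sets (5.41%) lay near that of the whole array. By brightest set, 1 of 29 genes was called lower and 0 higher, beside 1.93% and 0.469% of all 9174 genes. At an unadjusted p under 0.05 there were 2 lower and 2 higher ABC genes, 13.8% in all, beside 9.48% lower, 6.8% higher and 16.3% in all over the array's genes. By set, 5 lower and 2 higher passed that level, 18.9% in all, beside 13.4%, 6.19% and 19.6%.

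The 29 brightest sets had log2 fold changes (persimmon peel minus control diet) from -0.33 to 0.51, with a median of 0.11, and 7 were negative and 22 positive. Over all genes the median was 0.01 and 47.4% were negative. Of the 37 tested ABC sets 15 were negative, beside 51.4% of all sets. The median of the ABC genes was 0.05 without persimmon peel diet replicate 3, 0.0058 without persimmon peel replicates 1 and 3 together, and -0.08 with the beta-actin ratio as a covariate. The median of all tested sets was lower in these fits too, at -0.06, -0.06 and -0.11, beside -0.0071 with every array and no covariate. Array 3 of the persimmon peel diet held the highest of the 8 values in 15 of the 29 genes. The arrays of the diets lay apart in 5 of 37 sets (13.5%), beside 12.9% of all sets. Of these 3 were lower and 2 higher, beside 10% and 2.87%. They lay apart in 3 of 29 genes, beside 10.4% of all genes, with 1 lower and 2 higher, beside 7.21% and 3.24%. For 22 of the 29 genes the 95% interval of the difference lay within 1.5-fold in both directions, and for 28 within 2-fold, Abcc10 being the exception. Because whole liver was measured, fewer cells of a type and less RNA per cell cannot be told apart in any of these values.

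**Figure D1:**
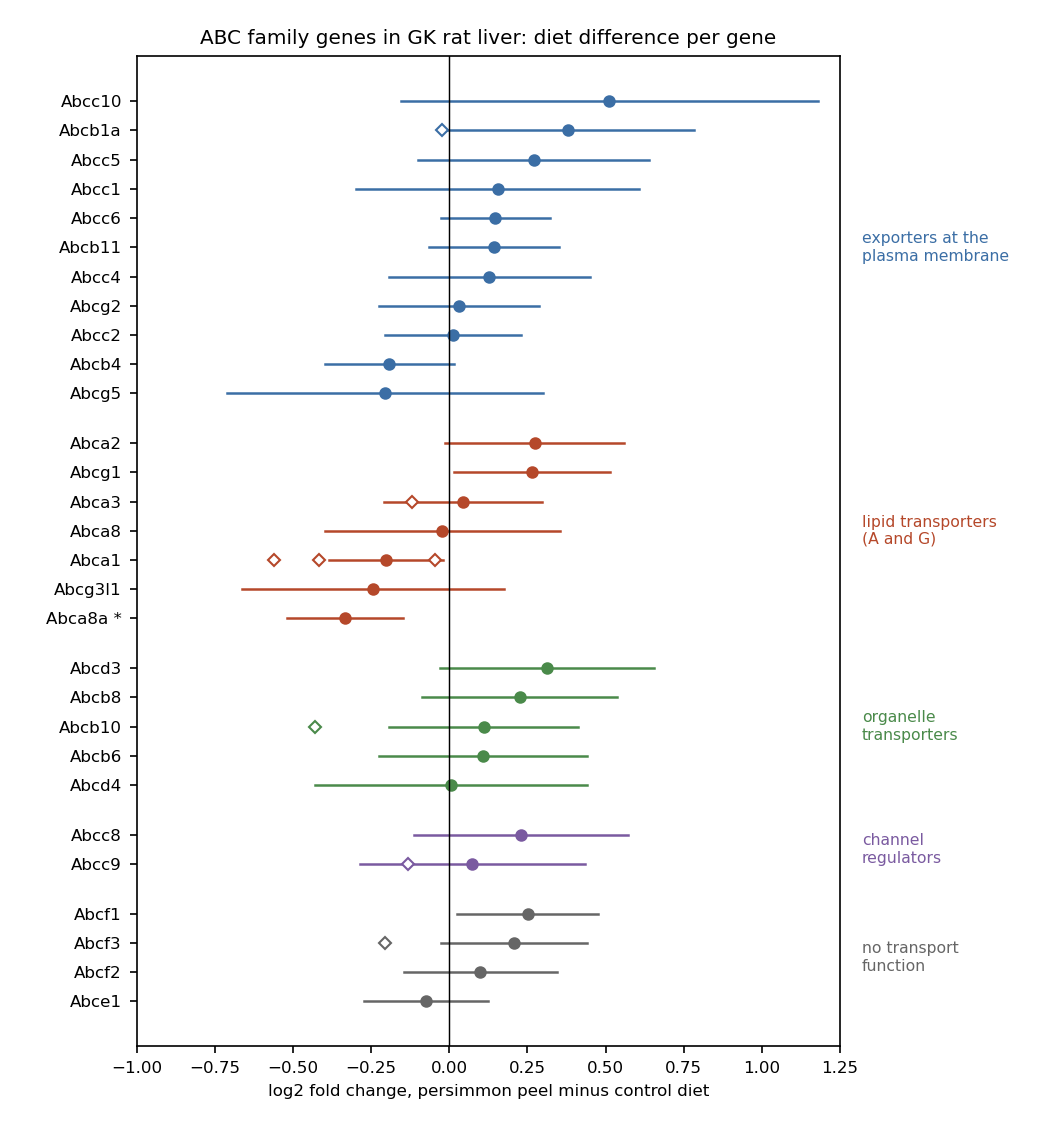
Log2 fold change of each of the 29 tested ABC genes, persimmon peel minus control diet, with 4 arrays per diet. Filled circles are the brightest probe set with its 95% interval, open diamonds are other tested sets of the same gene, and the asterisk marks Abca8a, the gene called by its brightest set. Most circles lie right of 0, with Abca8a lowest at -0.33 and Abcc10 highest at 0.51.

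Lipid transporters of subfamilies A and G held both called sets, that of Abca8a and the dimmest of Abca1. By brightest set 1 of their 7 tested genes was called lower, beside 1.93% of all genes. At an unadjusted p under 0.05 there were 2 lower and 1 higher, beside 9.48% and 6.8% of all genes. Of the 7 fold changes 4 were negative and 3 positive, with a median of -0.02. Abca8a belongs to a cluster of A-subfamily genes in which Abca8, Abca9, Abca6 and Abca5 are its neighbours, and relatives in this cluster have been tied to sterol efflux. Its signals were 1137, 1054, 1145 and 1194 on control arrays 1 to 4 and 838, 993, 936 and 837 on persimmon peel arrays 1 to 4. Every persimmon peel array lay below every control array, with group means of 1132 ± 57.8 and 901 ± 77.1 (SD, n = 4 each). The log2 fold change was -0.33 (SE 0.09, limma adjusted p = 0.0405). Abca8a has no second probe set, and its near relative Abca8, whose sequence could be shared in part by the probes, had a difference of -0.02 (SE 0.18, adjusted p = 0.963). The call of Abca8a was narrow. It did not pass under quantile normalization (adjusted p = 0.0736), with no filter (0.0665) or without the intensity trend (0.104). Over the whole array 597, 441 (of 31042) and 486 sets were called lower in those fits, beside 703 in the main fit. The call was lost in 6 of 8 fits that left out 1 array. These fits left out any control diet replicate (1 at 0.107, 2 at 0.0552, 3 at 0.0954, 4 at 0.125) or persimmon peel diet replicate 1 (0.133) or 4 (0.118). Over all 15521 sets 403, 543, 489, 295, 336 and 453 were called lower in those 6 fits, in that order. In all 8 fits the log2 fold change of Abca8a stayed between -0.38 and -0.30. With the beta-actin ratio as a covariate it was -0.08.

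Abca1 moves cholesterol and phospholipid out of the cell onto apolipoprotein A-I, the first step in making high-density lipoprotein, and the liver is a main site of this step. Its gene is a textbook target of the liver X receptors (LXR), which bind a repeat of nuclear receptor half-sites close to the start of transcription. The 250 bases before the RefSeq start, at chr5:72596474-72596723 of GRCr8 on the minus strand, are shown because they hold several of these letters. Capitals mark a GC box (GGGCGG), an E-box (CACGTG), a half-site core on the opposite strand (GGTCA, read here as TGACC) and a TATA box (TATAAA).
Abca1 upstream: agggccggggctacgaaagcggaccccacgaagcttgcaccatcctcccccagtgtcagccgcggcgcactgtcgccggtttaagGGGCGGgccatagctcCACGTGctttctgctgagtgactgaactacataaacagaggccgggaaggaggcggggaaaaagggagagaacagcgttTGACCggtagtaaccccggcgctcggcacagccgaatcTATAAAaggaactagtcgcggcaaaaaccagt
In this window each of the 4 motifs occurs 1 time. A match is a description of the letters and says nothing of binding in these livers.

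Abca1 had 4 tested probe sets, all with a negative fold change but of different size. The dimmest set was called: its signals were 150.1, 149, 144 and 172 on the control arrays and 91.3, 122, 108 and 98.04 on the persimmon peel arrays, without overlap. That set changed by -0.56 (SE 0.13, adjusted p = 0.0211). The brightest set read 1146, 996, 1108 and 1158 in control livers and 917, 953, 1048 and 917 in persimmon-fed livers, where persimmon peel array 3 lay above control array 2. Its log2 fold change was -0.20 (SE 0.09, 95% interval -0.38 to -0.02, adjusted p = 0.204). The second brightest set ran from 543 to 772 in control livers and 444 to 620.4 in persimmon-fed livers (log2 fold change -0.42, SE 0.13, adjusted p = 0.0803). The third set ran from 410.2 to 535 and from 427 to 516 (-0.05, SE 0.11, adjusted p = 0.854). The call of the dimmest set was lost without control diet replicate 1 (adjusted p = 0.0519) or 4 (0.0838) and without persimmon peel diet replicate 1 (0.0774) or 4 (0.0573). It was also lost without persimmon peel replicates 1 and 3 together (0.148). Of all 15521 sets 403, 295, 336, 453 and 75 were called lower in those fits, in that order. With the beta-actin ratio as a covariate the dimmest set was at -0.15 and the second set at 0.07. The second set passed without control diet replicate 2 (-0.52, adjusted p = 0.0371) and without persimmon peel diet replicate 2 (-0.52, adjusted p = 0.0205). In those fits 543 and 942 of all 15521 sets were called lower, beside 703 with every array.

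Abcg1, which hands cholesterol to mature high-density lipoprotein particles and is prominent in macrophages, lay higher on the persimmon peel arrays without overlap. Its brightest set read 139.9, 137, 150.1 and 149.9 in control livers and 163, 168, 205 and 159.6 in persimmon-fed livers. The difference of 0.26 (SE 0.12, 95% interval 0.02 to 0.51) did not pass (adjusted p = 0.222), and its other 2 sets lay below the filter. Markers of macrophages were given beside it because the gene is known from those cells: 6 of 8 had a tested set, with a summed signal of 3355 to 4668 in control livers and 3734 to 6102 in persimmon-fed livers, and 0 were called by limma (0 also at an unadjusted p under 0.05). Whether the share of macrophages moved Abcg1 was not tested. Abca2, a sterol transporter of endosomes and lysosomes, had a log2 difference of 0.27 (SE 0.13, adjusted p = 0.278). For Abca3, which packs surfactant lipid in the lung, the value was 0.04 (SE 0.12, adjusted p = 0.878). Its dimmer tested set had the opposite sign (-0.12, SE 0.12, adjusted p = 0.623). The rodent gene Abcg3l1, among the 3 with the lowest fold changes, had signals of 40.8, 53.3, 50.4 and 46.2 in control livers and 36.2, 40.6, 53.9 and 32.5 in persimmon-fed livers. Its groups overlapped (-0.24, SE 0.20, adjusted p = 0.526), and its probes could read near-identical G-subfamily copies.

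The exporters of bile constituents and drugs at the plasma membrane had 11 tested genes, of which limma called 0 in either direction (0 also at an unadjusted p under 0.05). Over all genes 1.93% were called lower, 0.469% were called higher and 16.3% had an unadjusted p under 0.05. Their median log2 fold change, that of the exporters, was 0.14, with 2 negative values, beside 47.4% negative over all genes. Abcb11, the bile salt export pump, drives bile-salt-dependent bile flow. It read 1792, 2062, 1779 and 1943 in control livers and 2216, 1832, 2463 and 1899 in persimmon-fed livers. Persimmon peel arrays 1 and 3 lay above all control arrays and arrays 2 and 4 among them, and the difference was 0.14 (95% interval -0.06 to 0.35, adjusted p = 0.447). Without persimmon peel replicates 1 and 3 it was -0.02, and with the beta-actin ratio as a covariate -0.26. Abcc2, which excretes bilirubin glucuronide and other conjugates, read 2120.0, 1797, 1666 and 1562 in control livers and 1988, 1713, 1906 and 1582 in persimmon-fed livers. Those ranges nearly coincided, and the interval of the difference ran from -0.21 to 0.23 around 0.01 (adjusted p = 0.963). Abcb4 flips phosphatidylcholine into bile and protects the duct epithelium from bile salts. It read 564, 592, 585 and 665 in control livers and 468, 556, 565 and 518 in persimmon-fed livers. Only persimmon peel array 3 reached the control range, and the difference of -0.19 (SE 0.10, 95% interval -0.40 to 0.01) did not pass (adjusted p = 0.291).

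Abcc6, an exporter of the basolateral membrane whose loss causes soft-tissue calcification, read 1240.2, 1228, 1191 and 1269.7 in control livers. On the persimmon peel diet it read 1379, 1248, 1526 and 1322, with array 2 inside the control range (0.15, SE 0.08, adjusted p = 0.340). Abcg2, which carries urate, porphyrins and many drugs, read 219.5, 216, 237 and 237 in control livers and 208, 207.5, 285 and 238 in persimmon-fed livers. Persimmon peel array 3 stood well above the rest and array 4 just above the controls, and the interval was -0.22 to 0.29 around 0.03 (adjusted p = 0.914). Abcb1a encodes a P-glycoprotein of multidrug resistance. Its brightest set read 32.1, 37.3, 45.9 and 45.3 in control livers and 45.5, 52.7, 47.2 and 63.3 in persimmon-fed livers, near the lowest signal tested. That set had a log2 difference of 0.38 (SE 0.19, adjusted p = 0.282), while the second set had a log2 difference of -0.02 (SE 0.20, adjusted p = 0.963). A further set that matches Abcb1a and Abcb1b together, outside the membership rule, had a log2 difference of -0.37 (SE 0.22, adjusted p = 0.385), so the sets of this pair of near-identical genes did not share a direction.

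Abcc10, a broad drug exporter, had the largest positive fold change of the 29 genes and also the widest interval. Control arrays read 34.9, 42.1, 17.4 and 65.7 and persimmon peel arrays 45.8, 66.0, 49.0 and 46.8, so the groups overlapped and control array 3 was lowest (0.51, SE 0.31, adjusted p = 0.388). Without control diet replicate 3 its log2 difference was 0.16, below the 0.45 of Abcb1a in that fit, and it was 0.80 without control diet replicate 4. Of the remaining exporters, Abcc4, which moves bile acids and cyclic nucleotides at the basolateral side, had a log2 difference of 0.13 (SE 0.15, adjusted p = 0.683). Abcc5, an exporter of cyclic nucleotides, had a log2 difference of 0.27 (SE 0.17, adjusted p = 0.412), and its dimmer set lay below the filter. Abcc1, the first multidrug resistance protein described in its subfamily, had a log2 difference of 0.16 (SE 0.21, adjusted p = 0.730). Abcc3, a basolateral exporter of conjugates that is low in healthy rat liver, read 3.33, 2.72, 5.33 and 8.28 in control livers and 5.46, 7.09, 2.88 and 6.38 in persimmon-fed livers. Those values are far below the filter and were not tested.

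**Figure D2:**
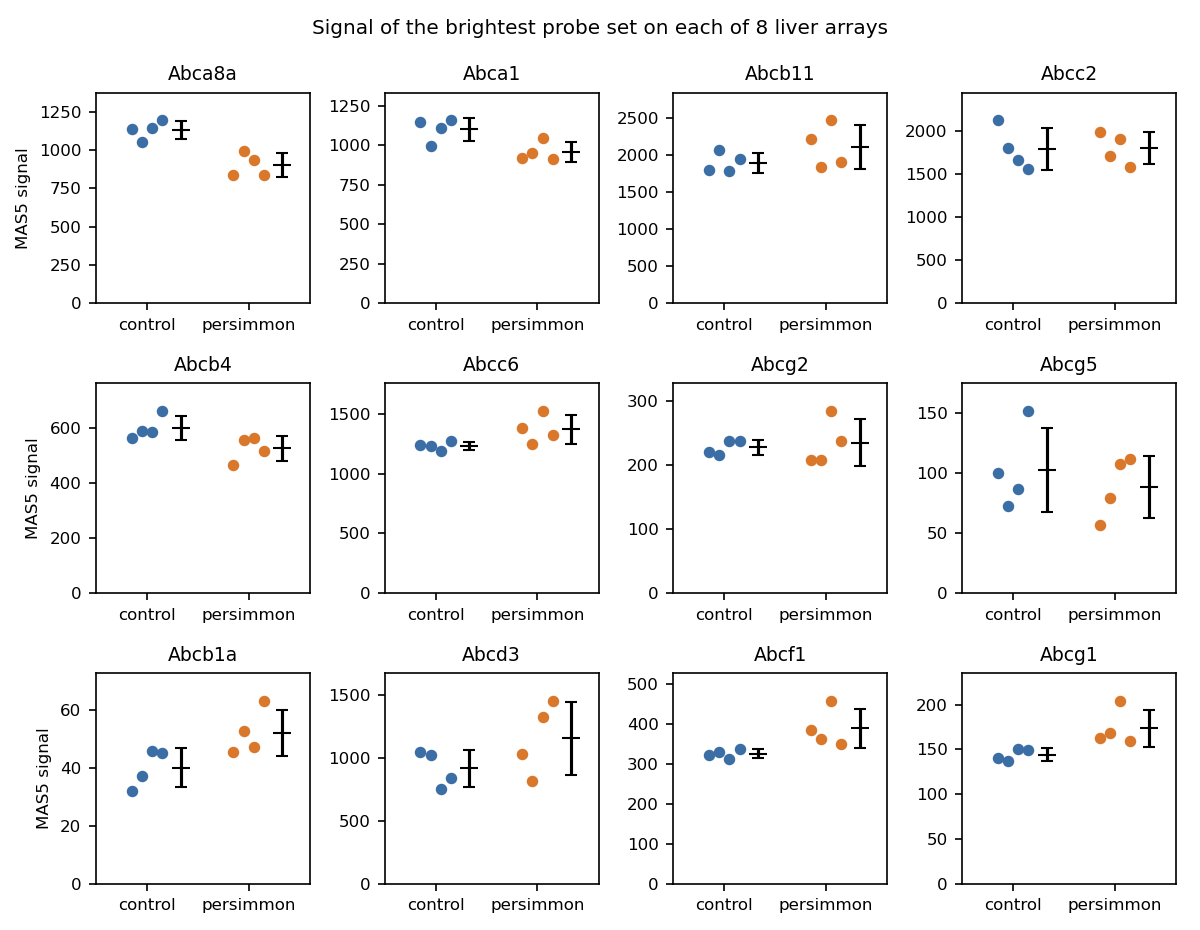
MAS5 signal of the brightest probe set of 12 ABC genes on each array, in arbitrary units from 0, with control arrays in blue and persimmon peel arrays in orange, replicates 1 to 4 from left to right. The black marks are the mean ± SD (n = 4). Abca8a, Abcf1 and Abcg1 are the genes whose diets do not overlap, and Abcc2 has means of 1786 and 1797.

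Abcg5 and Abcg8 are half-transporters that work only as a pair and secrete cholesterol and plant sterols into bile. Their genes are transcribed away from each other with 205 bases between the starts. The region is shown whole because both genes start from it, at chr6:15717731-15717935 of GRCr8 on the plus strand, from the start of Abcg8 to that of Abcg5. Capitals mark the TATAAA motif, the only one of the 4 searched motifs found in it.
Abcg8 to Abcg5: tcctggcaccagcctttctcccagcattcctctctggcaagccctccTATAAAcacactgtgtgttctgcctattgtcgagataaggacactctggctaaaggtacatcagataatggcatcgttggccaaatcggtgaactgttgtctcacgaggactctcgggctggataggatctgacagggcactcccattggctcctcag
Abcg5 read 99.8, 72.8, 86.5 and 152 in control livers and 56.9, 79.3, 108 and 112 in persimmon-fed livers. Its groups overlapped widely, with a difference of -0.20 and a 95% interval from -0.71 to 0.30 (adjusted p = 0.678). Abcg8 lay below the filter, with 21.4, 22.7, 31.99 and 46.0 in control livers and 19.3, 25.9, 30.5 and 25.4 in persimmon-fed livers. Both genes were highest on control array 4 and lowest on persimmon peel array 1. Over the 8 arrays their log2 signals correlated with Pearson's r = 0.79 (exact permutation p = 0.0217) and Spearman's rho = 0.62 (exact permutation p = 0.115). This 1 relation was chosen after its values were seen. Without control array 4 and persimmon peel array 1, the arrays farthest from the Abcg5 median, r was 0.18 (exact permutation p = 0.699). Those arrays hold the extreme values of both genes, and leaving them out narrows the range and lowers r by itself. The relation was not tested within a diet.

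**Figure D3:**
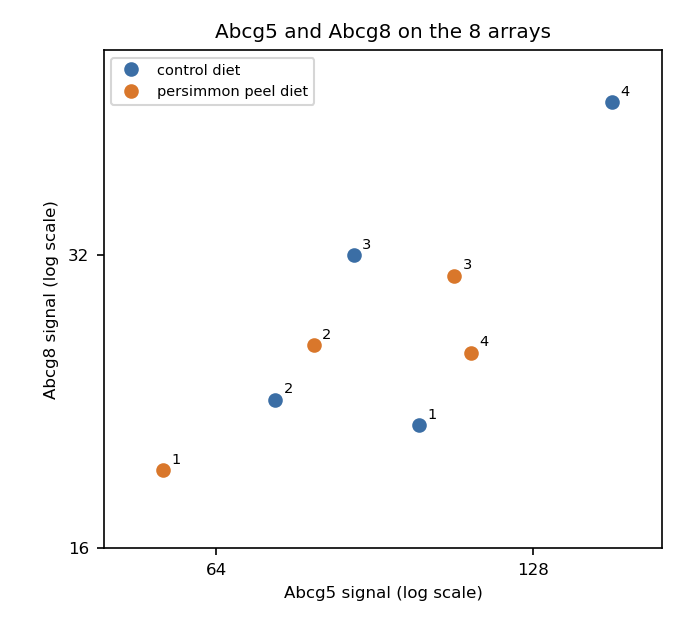
Signal of Abcg8 against Abcg5 on the 8 arrays, both on log axes, with replicate numbers beside the points. Control array 4 at the upper right and persimmon peel array 1 at the lower left hold the extreme values of both genes, and the correlation is 0.79 with them and 0.18 without them.

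Among the organelle transporters 5 genes were tested, all 5 with a positive fold change in their brightest set, and limma called 0 (0 also at an unadjusted p under 0.05). Over all genes 47.4% were negative, 1.93% were called lower, 0.469% were called higher and 16.3% had an unadjusted p under 0.05. Abcd3 brings branched and long-chain acyl-CoA and bile acid intermediates into peroxisomes. It read 1048, 1026, 752 and 840.2 in control livers and 1029, 813, 1322 and 1456 in persimmon-fed livers. Persimmon peel arrays 3 and 4 lay above all controls and arrays 1 and 2 among them, with a difference of 0.31 (SE 0.16, 95% interval -0.03 to 0.65, adjusted p = 0.301). It passed as higher when persimmon peel diet replicate 2 was left out (0.47, adjusted p = 0.0494) and was at -0.18 with the beta-actin ratio as a covariate. Without that replicate 267 of all 15521 sets were called higher, beside 66 with every array. Abcb10, a transporter of the inner mitochondrial membrane that supports haem synthesis, had sets of opposite sign. The dimmer set read 143, 137, 127 and 147 in control livers and 126, 109, 84.9 and 95.4 in persimmon-fed livers, without overlap, and it had a log2 difference of -0.43 (SE 0.14, adjusted p = 0.0895). The brighter set had a log2 difference of 0.11 (SE 0.14, adjusted p = 0.710). Abcb8, another mitochondrial transporter, had a log2 difference of 0.23 (SE 0.15, adjusted p = 0.420), Abcb6, which carries porphyrins, one of 0.11 (SE 0.16, adjusted p = 0.745), and Abcd4, of lysosomal vitamin B12 release, one of 0.0073 (SE 0.20, adjusted p = 0.989).

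Of the 4 members without a transport function, limma called 0 (1 at an unadjusted p under 0.05), and 3 fold changes were positive and 1 negative. Over all genes 1.93% were called lower, 0.469% were called higher, 16.3% had an unadjusted p under 0.05 and 47.4% were negative. Abcf1, which promotes translation initiation, read 321, 329, 311 and 337 in control livers and 385, 362, 457 and 349 in persimmon-fed livers. All persimmon peel arrays were above all controls, but the difference of 0.25 (SE 0.11, 95% interval 0.03 to 0.48) did not pass (adjusted p = 0.198). Under quantile normalization it did pass, at 0.29 (adjusted p = 0.0491). In that fit 271 of all 15521 sets were called higher, beside 66 without that normalization. Abcf3 had a log2 difference of 0.21 in its brighter set (SE 0.11, adjusted p = 0.317) and of -0.21 in its dimmer set (SE 0.17, adjusted p = 0.537). Abcf2 had a log2 difference of 0.10 (SE 0.11, adjusted p = 0.673), and Abce1, which splits ribosomes after termination, one of -0.07 (95% interval -0.27 to 0.12, adjusted p = 0.703). The regulatory subunits of ATP-sensitive potassium channels, Abcc8 and Abcc9, had log2 differences of 0.23 (SE 0.16, adjusted p = 0.456) and 0.07 (SE 0.17, adjusted p = 0.851). The dimmer tested set of Abcc9 had the opposite sign (-0.13, SE 0.21, adjusted p = 0.779). Abcc8 is best known from pancreatic beta cells, and its signal in liver lay between 71.1 and 109 on all 8 arrays.

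The 8 genes with no tested set were Abcc3 and Abcg8, given above, and Abca4, Abca5, Abca7, Abcb9, Abcd2 and Abcg4. Abca4 is the retinal transporter of photoreceptors, Abcb9 a peptide transporter of lysosomes, Abcd2 a peroxisomal carrier of very-long-chain fatty acids and Abcg4 a sterol transporter of the brain. In Abca5 the signals ran from 16.6 to 39.9 in control livers and 22.8 to 30.1 in persimmon-fed livers. Abcd2 ran from 1.08 to 16.1 and from 9.31 to 14.5, and Abcb9 from 8.69 to 18.2 and from 5.94 to 11.9. The diets overlapped in all 8 genes, and at these signals a fold change has little meaning. None of the 8 was called when limma was run with no filter.

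Of the 6 ABC genes with several tested sets, all 6 had a lower value in the dimmest relative to the brightest set in persimmon-fed livers. The log2 difference of the dimmest minus the brightest set had a diet difference of -0.54 in Abcb10 (SE 0.18, adjusted p = 0.0672), -0.41 in Abcf3 (SE 0.20, adjusted p = 0.185) and -0.41 in Abcb1a (SE 0.21, adjusted p = 0.228). In Abca1 it was -2.84 in control livers and -3.20 in persimmon-fed livers, a difference of -0.36 (SE 0.13, adjusted p = 0.0917). The arrays of the diets lay apart in Abca1 and Abcb10 and overlapped in the other 4 genes. Limma on these differences called 0 of the 6 (2 at an unadjusted p under 0.05), beside 11.9% called lower and 0.915% called higher of all 2295 genes with several tested sets. In those genes the difference was below 0 in 67.5%. The share of those genes with the diets apart, or with an unadjusted p under 0.05, was not counted. The 2 ABC genes are therefore not read as a trait of the family. The Abca1 difference passed without persimmon peel diet replicate 2, where 1 of the 6 was called. The share of all 2295 genes called in that fit is not given here. In the fit of single probe sets without that replicate, 942 of all 15521 sets were called lower and 267 higher. With every array those counts were 703 and 66. Of the ratios between parts of 1 control transcript, both of beta-actin were lower in persimmon-fed livers without overlap, with the 5' to 3' sets at -1.68 ± 0.12 and -1.97 ± 0.22 (SD, n = 4 each). Neither GAPDH ratio was apart between the diets. Where along the transcript each ABC set lies was not analysed here.

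**Figure D4:**
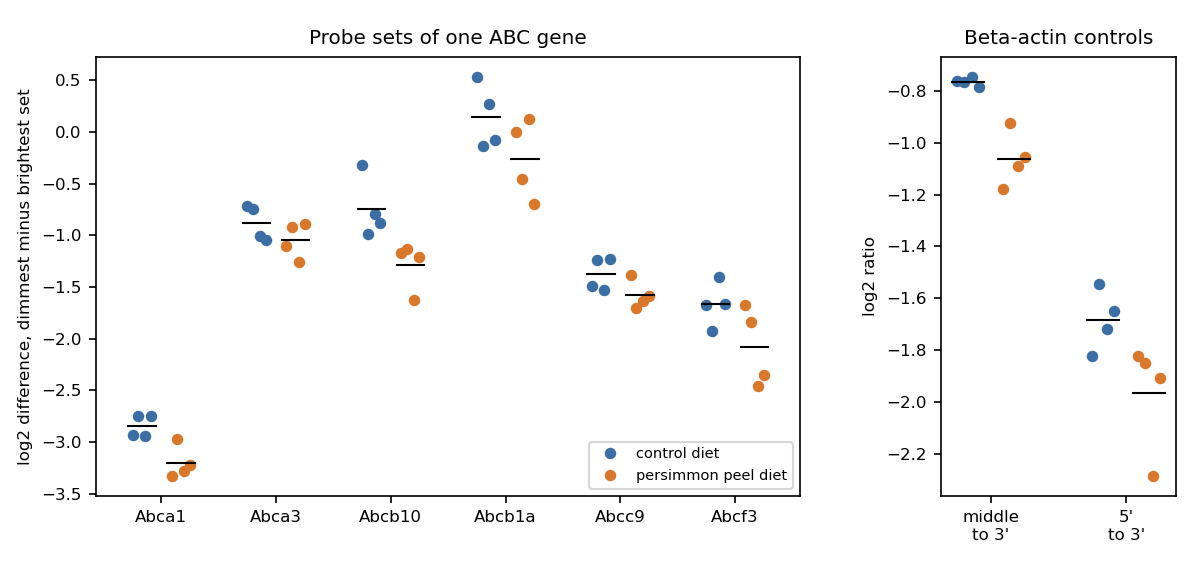
Left, the log2 signal of the dimmest minus the brightest tested set of 6 ABC genes on each array. Right, the log2 ratios of the beta-actin control sets. Blue points are control and orange points persimmon peel arrays, and lines are means of 4. In all 6 genes the orange mean lies below the blue mean, as it does in both beta-actin ratios.

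Partner genes were followed in lists that were drawn up with earlier results of these data known, by the brightest set of each gene, and their medians stand beside the 0.01 of all genes. Their called counts stand beside 1.93% called lower and 0.469% called higher of all genes. Bile formation and organic ion carriers had 16 tested genes of 21, with 2 called lower and 0 higher and a median of -0.10. The called genes were Tmem30a, the subunit that P4-type flippases of the canalicular membrane need, and Slco1a1, an uptake carrier of organic anions. Tmem30a averaged 2180 ± 312 in control and 1545 ± 119.9 in persimmon-fed livers (SD, n = 4 each), with ranges of 1955 to 2640.0 and 1420.4 to 1657. Its difference was -0.49 (SE 0.10, adjusted p = 0.0109) and that of Slco1a1 -0.49 (adjusted p = 0.0114). Of nuclear receptors and other regulators of ABC genes 15 of 17 were tested, with 1 called lower, Ppara, and a median of 0.10. Ppara, the fatty acid receptor that drives peroxisomal genes, ran from 68.6 to 121 in control livers and from 29.3 to 53.0 in persimmon-fed ones (-1.16, SE 0.21, adjusted p = 0.00658). Its persimmon-fed values lay near the lowest mean signal tested (34.4), where the size of a fold change is uncertain. Sterol efflux and high-density lipoprotein genes, the partners of Abca1, had 11 tested of 15 and a median of -0.04, with the smallest p in Apoe (-0.15, adjusted p = 0.140) and Apoa2 (-0.11, adjusted p = 0.269). Peroxisomal fatty acid genes, the partners of Abcd3, had 15 tested of 18 and a median of -0.16, with 12 negative, beside 47.4% of all genes. Abcd3 itself was positive but not called (0.31, adjusted p = 0.301). Crot (-0.43, adjusted p = 0.0656) and Phyh (-0.25, adjusted p = 0.077) had the smallest p in the peroxisomal list.

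In the mitochondrial iron-sulfur and haem list, to which Abcb10 relates, 17 of 20 genes were tested and the median was -0.07. Its smallest p belonged to Alas1 (-0.42, adjusted p = 0.182), the first enzyme of haem synthesis, and Hscb (-0.29, adjusted p = 0.228), a co-chaperone of iron-sulfur transfer. Peptide loading partners, which include the ABC half-transporters Tap1 and Tap2, had 11 tested of 12 and a median of 0.11, with Tap1 at 0.12 (SE 0.12, adjusted p = 0.632) and Tap2 at 0.26 (SE 0.16, adjusted p = 0.381). There Pdia3 (-0.22, adjusted p = 0.128) and Psmb10 (0.24, adjusted p = 0.279) had the smallest p. Translation partners of Abce1 and the F subfamily had 15 tested of 16 and a median of 0.0037, with Eif2b4 at 0.23 (adjusted p = 0.322) and Eif2s2 at -0.14 (adjusted p = 0.404). Limma called 0 genes in the sterol, peroxisomal, iron-sulfur, peptide loading and translation lists, where 1, 6, 2, 1 and 0 genes had an unadjusted p under 0.05. That level was passed by 5 of 16 bile formation genes and 7 of 15 regulators, and by 16.3% of all genes. Bile duct markers, given because duct cells also hold ABC exporters, had 2 of 8 tested. These were Slc4a2 (0.29, adjusted p = 0.143), which is also in the bile formation list, and Epcam (0.0025, adjusted p = 0.995). The signal summed over all 7 markers with a probe set was 502 to 632 in control livers and 582 to 691 in persimmon-fed livers. That sum includes Krt19, Krt7, Spp1, Cftr and Muc1, which lay below the filter. Of the other marker lists, sinusoidal endothelial cells had 5 tested genes of 7, with Fcgr2b called lower (-0.42, adjusted p = 0.009), beside 1.93% of all genes. The others were not called, with Lyve1 at -0.24, Kdr at -0.10, Stab2 at -0.05 and Pecam1 at 0.27. The summed signal of the endothelial list was 4491 to 4751 in control and 3659 to 4601 in persimmon-fed livers. Limma called 0 genes in the hepatocyte, stellate cell, lymphocyte and red blood cell lists. Negative fold changes were found in 8 of 9, 5 of 6, 1 of 1 and 1 of 4 of their tested genes, in that order. In the macrophage list 1 of 6 was negative and in the bile duct list 0 of 2, beside 47.4% of all genes. The part of any of these cell types in an ABC value was not tested.

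RefSeq promoter windows, from 250 bases before to 50 after the start, were found for 30 of the 37 genes. The windows were searched on both strands for 4 motifs. The GC box GGGCGG was present in 21 of the 30 (70%), beside 34.9% of 27457 windows of all genes. An E-box, CACGTG, was present in 2, Abca1 and Abcb6 (6.67%, beside 6.65%). The TATA box TATAAA was present in 4, Abca1, Abcd4, Abcg5 and Abcg8 (13.3%, beside 14.3%), of which Abcg5 and Abcg8 share 1 region. The half-site core GGTCA was present in 9 (30%, beside 40.2%).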

How the data were processed

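The authors deposited 1 linear intensity per array for each of 31099 probe sets, 57 of them manufacturer's controls. These are MAS5 values per the submitters' processing notes, which name no version; the scaling target is not given in the sources used here, and no detection calls were used. All 8 columns matched a sample by name. Names came from the platform annotation, brought up to date through RefSeq GRCr8, where all 37 ABC genes were found. Here the deposited intensity was transformed to log2 without a pseudocount. Control sets and the dimmest 50% of sets by mean log2 value were left out, which left 15521. A two-sided limma fit (3.58.1, under R 4.3.3) with an intensity trend gave the difference of persimmon peel minus control diet. Every adjusted p of a probe set is from limma with Benjamini-Hochberg adjustment over all tested sets, and each SE is its moderated one. Differences between sets of a gene were fitted without the trend over 2295 genes. No label ties a control rat to a persimmon peel rat, and p-values measure the spread between these animals. Precision is limited by having 4 arrays per diet.

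The members, the lists, the tests and the alternatives were chosen with earlier results of these data known. All tested members are named. Single-array values are given for members with a called set, 12 listed hepatocyte transporters (Abcb1b has no set of its own) and the 3 largest fold changes in each direction, and those of Abcf1, Abcg1, Abcb10, Abcc8 (as a range) and some second sets were added after their values were seen. From each partner list the called genes or the 2 with the smallest p are named, and Tap1 and Tap2 were added as ABC relatives. Alternatives were no filter, the upper 30% by signal, a pseudocount of 16, median centring, quantile normalization, no trend, a replicate block, leaving out each array, persimmon peel replicates 1 and 3 left out, the beta-actin ratio as a covariate and the mean of a gene's sets. On data simulated for the diet comparison (15521 sets) the model recovered 7 of 50 sets changed by 1.25-fold, 20 of 50 by 1.5-fold, 41 of 50 by 2-fold and 50 of 50 by 3-fold, with 6 unchanged sets called.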

Additional observations from a re-analysis of the deposited data

Results flagged for a closer look

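In 39 ABC probe sets the lowest and the highest array of each diet were compared with the other 3 by Dixon's ratio, over 78 groups of 4 arrays. Chance alone would mark about 1 in 20 groups, and 2 were marked. Abcc8 read 97.1 on control diet replicate 2, above the 71.1 to 73.4 of the other control arrays. Abcc9 read 161 on control diet replicate 4, above the 116 to 121 of the others. Both genes had overlapping diets and neither was called.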

How the results depend on the processing

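With 4 arrays per diet, the calls among ABC sets changed with most settings. In the fit reported above 2 sets were called lower, and 1 gene was called lower by brightest set. These ABC counts were 1 and 0 under quantile normalization, with no filter, without the intensity trend and with the replicate block. Over the whole array 597, 441, 486 and 596 sets were called lower in those fits, in that order, beside 703 in the fit reported above. The fit with no filter held 31042 sets and the others 15521. Both ABC counts were 0 without persimmon peel replicates 1 and 3 together and with the beta-actin ratio as a covariate. There 75 and 0 of all 15521 sets were called lower. Higher calls numbered 1 set and 1 gene under quantile normalization (Abcf1), where 271 of all 15521 sets were called higher, beside 66 in the fit reported above. With each array left out in turn, ABC sets called lower ranged from 0 to 3 and genes called lower from 0 to 1. Higher calls ranged from 0 to 1 in both, and called differences between sets of a gene from 0 to 1. In those fits 295 to 942 of all 15521 sets were called lower and 12 to 267 higher, beside 703 and 66 with every array. Same-numbered arrays of the diets did not deviate together (correlations of 0.02, -0.08, 0.05 and 0.04), so the replicate block, in which Abca8a had an adjusted p of 0.0903 and the dimmest Abca1 set 0.0393, joins arrays by number only. Signs that changed belonged to sets that were not called. Under median centring Abcc2 was -0.0085 and Abcd4 -0.014. With the mean of a gene's sets Abca3 was -0.038, Abcb10 -0.16 and Abcc9 -0.029. Without persimmon peel replicates 1 and 3 together Abca3 was -0.10, Abcb10 -0.014, Abcb11 -0.020, Abcc2 -0.11, Abcc9 -0.012, Abcf2 -0.0031 and Abcg2 -0.034. With the beta-actin ratio as a covariate, which lay apart between the diets, 18 of 29 genes changed sign. The ratio had an SD of 0.02 in control and 0.11 in persimmon-fed livers, so that fit can hardly tell ratio and diet apart. Its values are imprecise, are given without an SE and are not read as an effect of RNA quality. Abca3 was -0.094, Abca8 0.20, Abcb10 -0.25, Abcb11 -0.26, Abcb4 0.018, Abcb8 -0.23, Abcc2 -0.23, Abcc4 -0.19, Abcc5 -0.30, Abcc6 -0.080, Abcc8 -0.20, Abcc9 -0.15, Abcd3 -0.18, Abcd4 -0.12, Abcf2 -0.0035, Abcf3 -0.019, Abcg2 -0.070, Abcg5 0.082 and the second Abca1 set 0.067. With each array left out the range was -0.016 to 0.19 for Abcb10, -0.049 to 0.098 for Abcc2, -0.17 to 0.12 for Abcd4, -0.18 to 0.12 for Abca8, -0.35 to 0.0032 for Abcg5, -0.051 to 0.12 for Abca3, -0.0065 to 0.24 for Abcb6, -0.072 to 0.19 for Abcc9 and -0.066 to 0.087 for Abcg2. The causes were not tested. The 95% interval was widest in Abcc10 and next widest in Abcg5.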

Other observations

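A probe set that matches Abcg3l4 and Abcg3l2, left out because it names 2 genes, had a signal of 1311 ± 52.1 in control livers and 1291 ± 68.6 in persimmon-fed livers (SD, n = 4 each). Its log2 fold change was -0.02 (SE 0.08, limma adjusted p = 0.906). Cftr, the ABC family's chloride channel, carries another name and so fell outside the rule. It lay below the filter, with a signal of 10.8 ± 3.28 in control livers and 12.0 ± 2.71 in persimmon-fed livers (SD, n = 4 each).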
